A study of Arabidopsis thaliana with 17 samples.

Results

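Residual 24 nt small interfering RNAs (siRNAs) were described at 788 of 12,939 siRNA clusters of Arabidopsis flowers, which kept more of them in the NRPD1-3xF AAA-YPMF line than in the NRPD1-3xF CYC-AAAA line. The clusters were chosen by the deposited levels, in RPKM, the number of reads scaled to cluster length and library size. Both NRPD1-3xF AAA-YPMF libraries exceeded both NRPD1-3xF CYC-AAAA libraries, the means of log2(RPKM + 1) differed by at least 0.5, and the nrpd1-3 mean was under 0.5 RPKM. The first condition held at 5558 clusters, and the difference left 828. The nrpd1-3 limit removed another 40. These 788 residual clusters are 6.09% of all clusters. Levels in NRPD1-3xF AAA-YPMF, NRPD1-3xF CYC-AAAA and nrpd1-3 were therefore selected on and are given as a description.

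The study asked how an NRPD1 motif, CYC-YPMF, contributes to siRNA production, and sequenced small RNAs of flowers from 6 genotypes with 2 biological replicates each. Col-0 is the wild type, nrpd1-3 is the null mutant of NRPD1, and clsy quad carries clsy1-7, clsy2-1, clsy3-1 and clsy4-1. The 3 tagged lines are all nrpd1-3 plants with a transgene for NRPD1 fused to 3xFLAG, under the NRPD1 promoter. NRPD1-3xF WT has the intact motif, NRPD1-3xF AAA-YPMF has alanines in place of CYC, and NRPD1-3xF CYC-AAAA has alanines in place of YPMF. The methods describe these lines as Basta-resistant T2 progeny selected for strong expression of the tagged protein, and whether the replicates of a line came from separate insertions is not given in the sources used here.

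RNA polymerase IV (Pol IV), whose largest subunit is NRPD1, transcribes transposons and repeats into short RNAs that RDR2 makes double-stranded and DCL3 cuts into 24 nt siRNAs. ARGONAUTE proteins carry these siRNAs to matching transcripts of Pol V, which leads to DNA methylation, a pathway named RNA-directed DNA methylation. The SNF2-like proteins CLSY1, CLSY2, CLSY3 and CLSY4 bring Pol IV to its targets.

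Sequences at the residual clusters with high NRPD1-3xF AAA-YPMF levels are shown first. Each is the first 150 bases from the position in the cluster's name, read from the RefSeq TAIR10.1 assembly, whose nuclear chromosomes fit the positions of the clusters. Capitals mark bases within a 24-mer that occurs again elsewhere in the genome. The ends of the clusters were not used here. The position was taken as the left edge, because the smallest values above 0 fell with the distance to the next cluster (Spearman -0.50). This was not checked otherwise, and a window can run past the end of its cluster.
merged_4_13902361 (chr4:13902361-13902510, plus strand): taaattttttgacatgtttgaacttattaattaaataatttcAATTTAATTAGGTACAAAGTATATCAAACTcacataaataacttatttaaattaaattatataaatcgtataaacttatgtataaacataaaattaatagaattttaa
merged_3_15680917 (chr3:15680917-15681066, plus strand): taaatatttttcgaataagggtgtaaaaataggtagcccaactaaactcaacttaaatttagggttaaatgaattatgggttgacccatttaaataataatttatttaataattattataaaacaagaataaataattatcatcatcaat
merged_1_23453053 (chr1:23453053-23453202, plus strand): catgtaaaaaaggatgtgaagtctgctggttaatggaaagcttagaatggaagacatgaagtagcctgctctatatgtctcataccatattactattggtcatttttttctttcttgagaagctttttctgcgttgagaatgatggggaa
merged_2_1206413 (chr2:1206413-1206562, plus strand): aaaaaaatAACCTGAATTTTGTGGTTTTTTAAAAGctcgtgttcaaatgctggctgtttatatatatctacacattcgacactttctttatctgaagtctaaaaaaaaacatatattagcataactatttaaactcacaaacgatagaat
merged_4_3766781 (chr4:3766781-3766930, plus strand): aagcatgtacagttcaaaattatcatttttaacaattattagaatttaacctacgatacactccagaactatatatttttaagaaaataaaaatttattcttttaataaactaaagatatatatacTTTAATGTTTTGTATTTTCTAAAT
merged_3_10006169 (chr3:10006169-10006318, plus strand): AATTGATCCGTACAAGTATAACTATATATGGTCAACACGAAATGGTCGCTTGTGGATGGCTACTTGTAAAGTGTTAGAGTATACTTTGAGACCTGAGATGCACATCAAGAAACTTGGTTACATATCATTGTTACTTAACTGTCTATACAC

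The windows differed in how much of their sequence was repeated. merged_3_15680917 and merged_1_23453053 held no repeated 24-mer in the bases shown, whereas each 24-mer of merged_3_10006169 occurred again. Over the first 300 bases, the median share of repeated 24-mers was 7.94% in the residual clusters and 18.8% in all 12,902 nuclear clusters. No 24-mer was found elsewhere at 213 residual clusters (27.0%), against 19.5% of nuclear clusters. These differences went with the Col-0 level. When the nuclear clusters were split into 10 parts by their Col-0 mean, the median share of repeated 24-mers in the highest part was 2.89% in residual clusters and 1.44% in the others, and in the part below it 10.5% and 7.94%. Windows without a repeated 24-mer made up 39.3% and 42.0% in the highest part and 17.6% and 25.9% in the part below it. At these levels the order was therefore the opposite.

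Some residual clusters shared short stretches of sequence. Of the 788 clusters, 250 (31.7%) shared at least 1 exact 24-mer with another residual cluster, in 54 groups. No share for an equal number of other clusters is set beside this, so it is not shown to be particular to the residual clusters. Clusters were joined into a group through any shared 24-mer, so that most of the sequence of its members can differ. Where windows overlap, as at merged_3_7502400 and merged_3_7502655, the shared 24-mers are the same piece of DNA. The largest group held 65 clusters on all 5 chromosomes, with a median of 26.4% of the 24-mers in a window found elsewhere in the genome. It had median levels of 32.1 RPKM in Col-0, 40.5 RPKM in NRPD1-3xF WT and 0.880 RPKM in NRPD1-3xF AAA-YPMF. Clusters that share a 24-mer are not independent, because the authors placed a read that matched several loci by a rule that weighs the reads nearby. The 24-mer held by the most residual clusters was present in 12 of them and at 56 places in the genome. Stretches of 60 bases from 6 of the 12 clusters, with this 24-mer in capitals, show that the bases to its left were much alike and those to its right differed.
merged_3_17033178 (chr3:17033237-17033296, minus strand): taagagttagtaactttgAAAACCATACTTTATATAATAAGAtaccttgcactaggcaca
merged_4_4801734 (chr4:4801805-4801864, plus strand): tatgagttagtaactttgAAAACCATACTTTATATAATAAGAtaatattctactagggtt
merged_5_17275893 (chr5:17275957-17276016, plus strand): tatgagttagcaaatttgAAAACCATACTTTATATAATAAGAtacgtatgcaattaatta
merged_1_21260035 (chr1:21260129-21260188, minus strand): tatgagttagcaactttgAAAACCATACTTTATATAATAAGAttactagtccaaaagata
merged_2_8854245 (chr2:8854355-8854414, minus strand): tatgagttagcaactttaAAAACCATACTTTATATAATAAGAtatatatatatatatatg
merged_3_5380126 (chr3:5380190-5380249, plus strand): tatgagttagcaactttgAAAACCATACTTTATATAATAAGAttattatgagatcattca

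These 12 clusters lay on 5 chromosomes. Their mean levels ranged from 23.1 to 125 RPKM in Col-0, from 31.6 to 114 RPKM in NRPD1-3xF WT and from 0.475 to 2.27 RPKM in NRPD1-3xF AAA-YPMF. None of the 12 was called as changed between NRPD1-3xF WT and Col-0, by the limma test used for all clusters. A read from the shared 24-mer cannot be assigned to a cluster by its sequence.

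Levels at the residual clusters were low in each mutant and high in Col-0. The median over the 788 clusters was 0.770 and 0.940 RPKM in the NRPD1-3xF AAA-YPMF libraries (replicates 1 and 2), 0.170 and 0.130 RPKM in NRPD1-3xF CYC-AAAA, and 0.0600 and 0.0800 RPKM in nrpd1-3. It was 0.120 and 0.185 RPKM in clsy quad. Col-0 had medians of 52.8 and 52.7 RPKM, and NRPD1-3xF WT had 64.7 and 58.1 RPKM. The siRNAs that remained in NRPD1-3xF AAA-YPMF were thus a median of 1.61% of the Col-0 mean of the same cluster and 1.5% of the NRPD1-3xF WT mean. The quartiles of the percent of Col-0 were 0.636% and 3.52%, and 280 clusters kept under 1%, whereas 37 kept at least 10%.

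**Figure D1:**
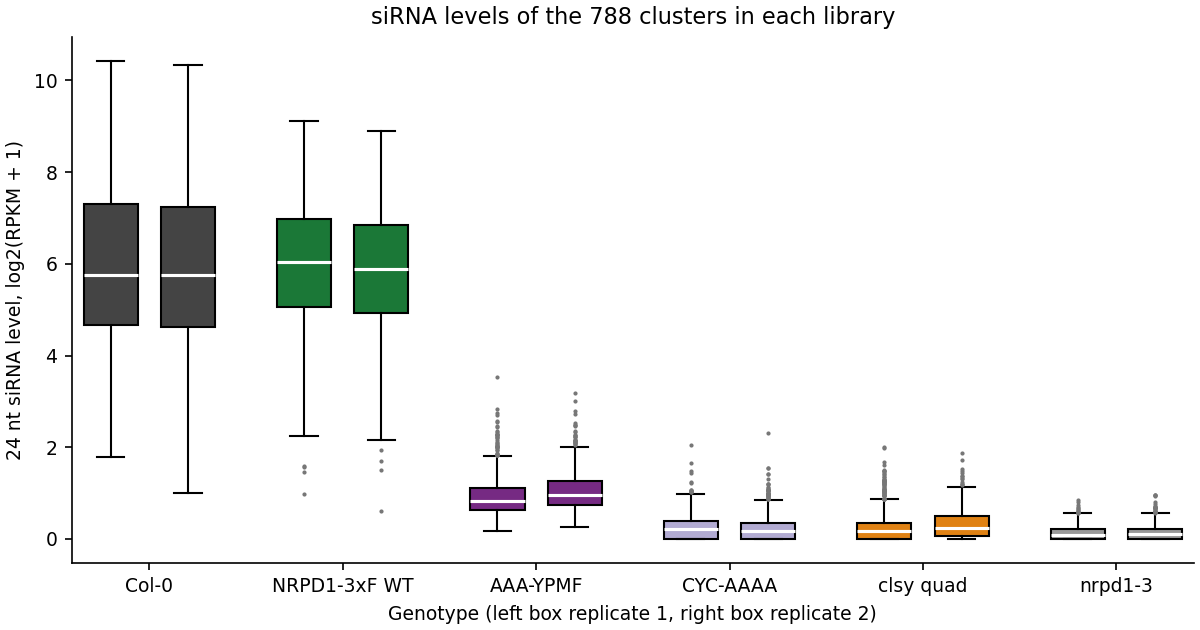
Levels of the 788 residual clusters as log2(RPKM + 1) (vertical axis) in each of the 12 libraries (horizontal axis, by genotype). Boxes span the quartiles with the median as a white line, whiskers reach 1.5 times the interquartile range and points are clusters beyond them. The medians of 0.770 and 0.940 RPKM in NRPD1-3xF AAA-YPMF lie far below those of 52.8 and 52.7 RPKM in Col-0.

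Few reads lay behind some of these values. In the 749 residual clusters with a value above 0 in any of the 6 other mutant libraries, the lower NRPD1-3xF AAA-YPMF library was a median of 7.20 times the smallest such value, and 2.30 times at the 10th percentile. At 39 clusters the 6 other mutant libraries were all listed at 0. Where values were low, the steps between them gave a depth of 1.2 to 1.5 times that of nrpd1-3 replicate 1 for the other mutant libraries. The read totals and cluster lengths that would turn RPKM into reads were not used here, so no counting interval is given.

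At the edges of the rule, merged_4_6680971 was just inside the difference limit at 0.25 and 0.60 RPKM in NRPD1-3xF AAA-YPMF (replicates 1 and 2), with 0 in both NRPD1-3xF CYC-AAAA libraries. merged_2_4104762 was also just inside, at 0.13 and 0.77 RPKM, again against 0. merged_3_12631876, with 0.45 and 0.53 RPKM against 0.11 and 0, and merged_1_29611930, with 1.02 and 1.06 against 0.37 and 0.52, were just outside. The clusters just outside the limit therefore had higher mean NRPD1-3xF AAA-YPMF levels than those just inside, and also higher mean NRPD1-3xF CYC-AAAA levels. For the nrpd1-3 limit, merged_1_21853577 and merged_1_21518459 were just inside at means of 0.485 and 0.490 RPKM. merged_4_6900073 and merged_1_18033551 were just outside, both at 0.50 RPKM. For the order of the libraries, the lower NRPD1-3xF AAA-YPMF library exceeded the higher NRPD1-3xF CYC-AAAA library by only 0.030 RPKM at merged_5_15253131 and 0.060 RPKM at merged_2_5036023. merged_5_14212016, with 0 and 1.53 RPKM in NRPD1-3xF AAA-YPMF, and merged_3_4551831, with 1.88 and 0, failed it because a library was at 0.

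The highest residual level was at merged_4_13902361, whose window starts 361 bp from PYL10, which encodes an abscisic acid receptor. NRPD1-3xF AAA-YPMF had 10.6 and 8.14 RPKM there, NRPD1-3xF CYC-AAAA 0.98 and 0.60 RPKM, clsy quad 2.95 and 2.30 RPKM and nrpd1-3 0.34 and 0.14 RPKM. The Col-0 libraries had 1137 and 1098 RPKM and the NRPD1-3xF WT libraries 357 and 325 RPKM. No 2 genotypes overlapped at this cluster. The residual siRNAs were 0.837% of the Col-0 level and 2.74% of the NRPD1-3xF WT level.

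The next cluster by residual level, merged_4_3766781, started 110 bp from YY1, a gene for a zinc finger protein. It had 5.68 and 7.04 RPKM in NRPD1-3xF AAA-YPMF and also the highest NRPD1-3xF CYC-AAAA levels of these 10 clusters, at 3.15 and 3.93 RPKM. The clsy quad libraries had 0.58 and 0.30 RPKM. Col-0 had 137 and 121 RPKM, and NRPD1-3xF WT had 177 and 158 RPKM. Here the tagged line was above Col-0, unlike at the first cluster.

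merged_2_1206413, an intergenic cluster 164 bp from AT2G03930, had 6.11 and 5.92 RPKM in NRPD1-3xF AAA-YPMF against 379.9 and 379.6 RPKM in the Col-0 libraries. merged_3_15680917 had the highest Col-0 level of the residual clusters, at 1380.5 and 1292 RPKM, and kept 5.51 and 4.59 RPKM. The remaining 6 of the 10 clusters with the highest residual levels had means of 4.1 to 4.48 RPKM in NRPD1-3xF AAA-YPMF. merged_4_2558980, with 4.87 and 4.09 RPKM, merged_1_23453053, with 4.94 and 3.42 RPKM, and merged_5_1409843, with 4.52 and 3.73 RPKM, were higher in replicate 1. merged_3_10006169, whose 24-mers were all repeated, was higher in replicate 2, at 3.90 and 4.80 RPKM, as were merged_5_19967664, at 2.64 and 5.63 RPKM, and merged_2_2602290, at 3.70 and 4.51 RPKM. Of the 10 clusters, 5 were lower and 5 were higher in both NRPD1-3xF WT libraries than in both Col-0 libraries.

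At the other end, the largest percent of the Col-0 level belonged to clusters with low Col-0 levels. merged_3_13178379 had 1.29 and 1.49 RPKM in NRPD1-3xF AAA-YPMF and 3.00 and 1.58 RPKM in Col-0, which is 60.7% of the Col-0 mean. NRPD1-3xF WT had 3.72 and 2.81 RPKM there, and clsy quad and nrpd1-3 were at 0 in all 4 libraries. The Col-0 libraries differed from each other by more than the means of the 2 genotypes did, so that this percent is imprecise. merged_3_13530927 kept 26.8%, merged_5_12261202 25.3%, merged_1_13353604 21.3% and merged_5_16464556 20.4%. Of the clusters with the lowest Col-0 levels, merged_1_4831098 lies in a coding exon of FUT9, a fucosyltransferase gene, and had 0.63 and 0.23 RPKM in NRPD1-3xF AAA-YPMF and 2.43 and 3.54 RPKM in Col-0. merged_2_3997857 had 0.64 and 0.41 RPKM in NRPD1-3xF AAA-YPMF and 3.66 and 2.48 RPKM in Col-0. The rule sets a lower bound on the residual level of every cluster, so that a large percent at a low Col-0 level follows in part from the selection.

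Most residual clusters had high Col-0 levels. The rule did not use the Col-0 libraries, but its difference limit after adding 1 RPKM needs a residual level that clusters of low Col-0 level can rarely reach, so that this pattern follows in large part from the selection. With 0.1 RPKM added in place of 1, 4964 clusters met the rule. Of the 10 parts by Col-0 level, the part with the highest levels, with a median of 101 RPKM, held 354 residual clusters, or 27.4% of the part. The part below it had 11%, and the lowest part had 0.0775%, a single cluster. The 788 clusters, 6.09% of all, held 26.1% and 25.8% of the summed RPKM of the Col-0 libraries, and 20.9% and 20.8% in NRPD1-3xF WT.

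**Figure D2:**
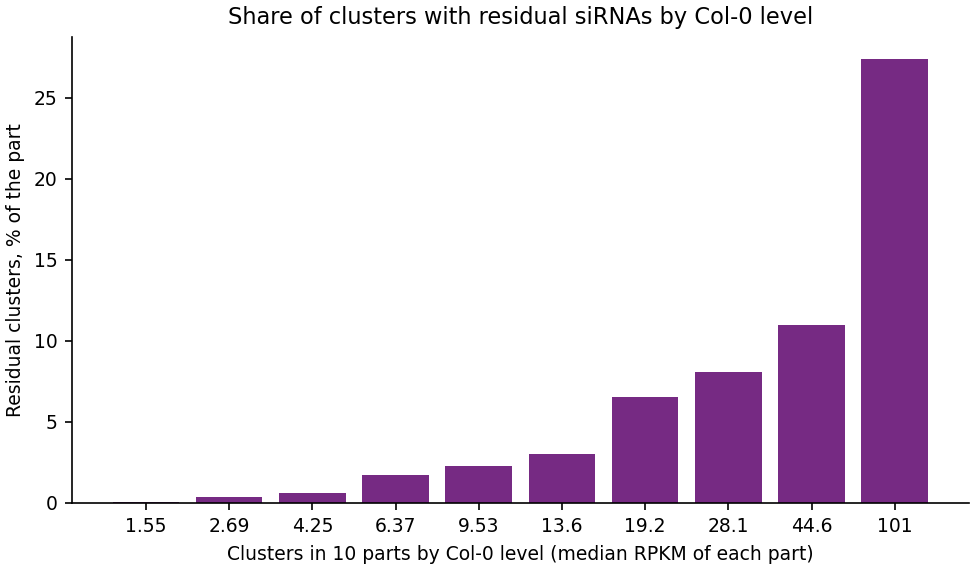
Percent of clusters that were residual clusters (vertical axis) in each of 10 equal parts of the nuclear clusters by Col-0 level (horizontal axis, median RPKM of the part). The share is 0.0775% in the lowest part and 27.4% in the highest.

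The percent that remained was smaller where Col-0 levels were higher, in residual clusters and in the others. The 788 clusters were split into 4 equal parts by Col-0 level. From the lowest part to the highest, the median residual level was 0.690, 0.785, 0.865 and 1.11 RPKM, while the median Col-0 level was 15.5, 35.9, 85.1 and 266 RPKM. The median percent of Col-0 that remained was 5.84%, 2.24%, 1.10% and 0.406%. Among the clusters that were not residual, the median percent of Col-0 in NRPD1-3xF AAA-YPMF also went from 3.59% in the lowest of the 10 parts by Col-0 level to 0.362% in the highest. The rule puts a floor under the residual level, which narrows its range in the 788 clusters. The Spearman correlation of the residual level with that of Col-0 was 0.36 over the 788 clusters and 0.55 over all clusters. Clusters share the libraries and some share reads, so that this value is a description.

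Whether the tagged intact NRPD1 restored the residual clusters was tested with limma on log2(RPKM + 1) over all 12,939 clusters. Calls needed a log2 fold change of 1 or more in either direction together with an adjusted p below 0.01. Between NRPD1-3xF WT and Col-0, 20 residual clusters (2.54%) were called higher and 105 (13.3%) were called lower in NRPD1-3xF WT. Over all clusters, 5.46% were called higher and 7.76% lower. The remaining 663 residual clusters were not called, which does not make them equal to Col-0. At an unadjusted limma p under 0.05 and with no fold change limit, 403 residual clusters were higher and 199 lower in NRPD1-3xF WT. The median log2 fold change was 0.25 over the residual clusters and 0.35 over all nuclear clusters, and the median level in NRPD1-3xF WT was 120% of that in Col-0 (quartiles 86.7% and 142%). Without NRPD1-3xF WT replicate 2, 36 residual clusters were called higher in place of 20. With the libraries shifted to an equal median, 11 were called higher and the median log2 fold change of the residual clusters was 0.09.

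The share called lower followed the Col-0 level. Of the 105 residual clusters called lower, 102 were in the highest of the 10 parts of nuclear clusters by Col-0 level. Within it, 28.8% of the 354 residual clusters and 31.8% of the 937 other clusters were called lower, with median Col-0 levels of 171 and 90.4 RPKM. In the part below it, 2 of 142 residual clusters (1.41%) and 16.1% of the other clusters were called lower. The corresponding shares in the part below that were 0.962% and 10.1%. Within each of these 3 parts the share of residual clusters called lower was therefore below that of the other clusters, although over all levels it was above the background. The share called higher also depended on the level. It was 2.82% of residual clusters and 1.39% of the others in the second highest part, and 0.565% and 0.320% in the highest. At these levels it was thus not below that of the other clusters, unlike over all levels. These shares were not tested.

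**Figure D3:**
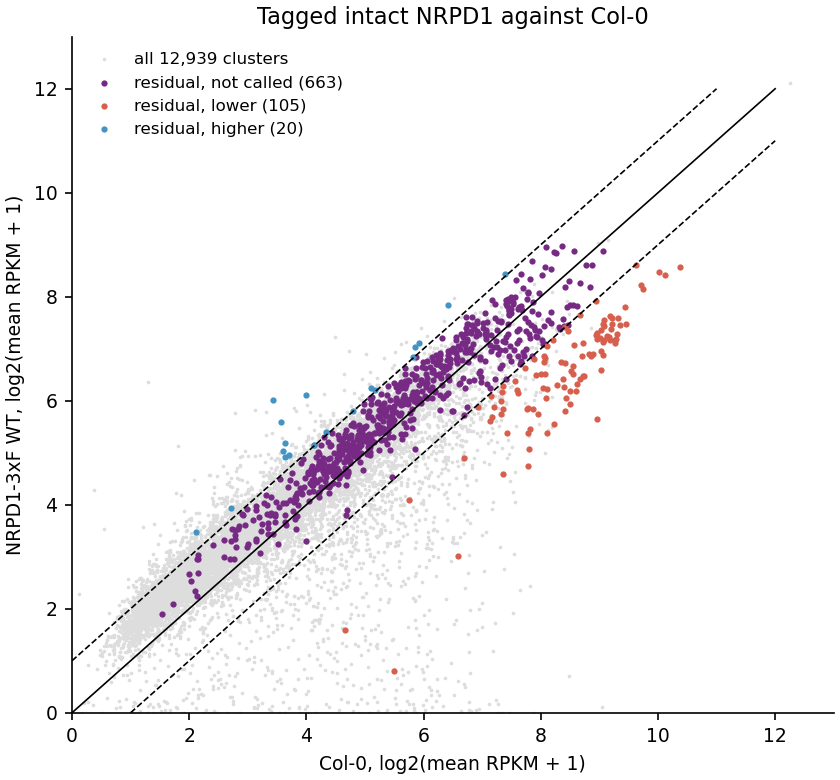
Mean level in NRPD1-3xF WT (vertical axis) against that in Col-0 (horizontal axis), both as log2(mean RPKM + 1). Grey points are all 12,939 clusters and coloured points the residual clusters, of which 663 were not called, 105 were lower and 20 were higher in NRPD1-3xF WT. The solid line marks equal levels and the dashed lines a log2 difference of 1.

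The residual clusters called lower had a median of 360 RPKM in Col-0 and 98.4 RPKM in NRPD1-3xF WT, with a median log2 fold change of -1.81. The largest decrease was at merged_5_7776977, which had 45.2 and 42.8 RPKM in Col-0 and 0.98 and 0.53 RPKM in NRPD1-3xF WT (log2 fold change -4.69 ± 0.144 SE, adjusted p = 1.63e-15 from limma). At this cluster the NRPD1-3xF AAA-YPMF libraries, at 0.98 and 0.71 RPKM, were no lower than those of the line with the intact motif. The CYC-AAAA libraries had 0.05 and 0.15 RPKM. It was the residual cluster with the lowest level in NRPD1-3xF WT relative to Col-0, at 1.72%.

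The next in size was merged_5_19198166, in a coding exon of AT5G47300, an F-box protein gene. It had 96.7 and 94.5 RPKM in Col-0, 8.92 and 5.34 RPKM in NRPD1-3xF WT and 0.38 and 0.55 RPKM in NRPD1-3xF AAA-YPMF. merged_1_4618911 had 539 and 459 RPKM in Col-0 and 53.0 and 45.4 RPKM in NRPD1-3xF WT, with a log2 fold change of -3.32. merged_2_13310464 and merged_4_9961740 fell by 3.07 and 3.04 on the log2 scale. In these 4 clusters the NRPD1-3xF WT libraries stayed above both NRPD1-3xF AAA-YPMF libraries.

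Among the 20 clusters called higher, the largest increase was at merged_1_9001092. It had 8.97 and 10.5 RPKM in Col-0 and 67.9 and 60.3 RPKM in NRPD1-3xF WT (log2 fold change 2.60 ± 0.125 SE, adjusted p = 1.44e-12 from limma). NRPD1-3xF AAA-YPMF had 1.01 and 1.94 RPKM. merged_3_12572026 rose by 2.10 and merged_3_14082678 by 2.02 on the log2 scale, and the latter lies in a coding exon of AT3G33528. merged_5_15136260 and merged_4_7539988 rose by 1.54 and 1.44. The 20 clusters had median levels of 16.5 RPKM in Col-0 and 51.1 RPKM in NRPD1-3xF WT.

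Clusters with a larger residual difference were looked at separately. At 82 of the 788 clusters the difference of NRPD1-3xF AAA-YPMF from NRPD1-3xF CYC-AAAA was at least 1 on the log2 scale. Of these, 43 were called lower and 4 higher in NRPD1-3xF WT, whereas over all clusters 7.76% were called lower and 5.46% higher. In the highest of the 10 parts by Col-0 level, 31.8% of the clusters that were not residual were called lower. The median log2 fold change of the 82 between NRPD1-3xF WT and Col-0 was -1.51, opposite in sign to the 0.25 of the 788. The median Col-0 level of the 82 was 385 RPKM.

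The siRNA levels of the residual clusters fell in clsy quad, which carries mutations in all 4 CLSY genes. Against Col-0, 786 of 788 (99.7%) were called lower with limma and 0 higher, and over all clusters 97.9% were called lower. This comparison shares its Col-0 libraries with the one above. At an unadjusted p under 0.05, 788 residual clusters were lower and 0 were higher. The median log2 fold change was -5.54, and the median clsy quad level was 0.218% of that in Col-0. Without clsy quad replicate 2 this percent was 0.140%. The 2 clusters not called had low and unequal Col-0 levels. They were merged_5_12261202, with 2.80 and 1.00 RPKM in Col-0 (adjusted p = 0.0125), and merged_1_15727611, with 5.11 and 1.42 RPKM (adjusted p = 0.0162). Both were at 0 in the clsy quad libraries.

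The 5 residual clusters with the highest clsy quad levels were also the 5 with the highest Col-0 levels. merged_3_15680917, 94 bp from the non-coding RNA gene AT3G06675, had 3.00 and 2.64 RPKM in clsy quad. merged_4_13902361 followed, at 2.95 and 2.30 RPKM. merged_4_5438259, in an intron of the receptor-like gene AT4G08545, had 2.19 and 1.88 RPKM in clsy quad and 1070.2 and 997 RPKM in Col-0. merged_4_2558980 had 1.79 and 1.60 RPKM, and merged_2_2865159 had 1.39 and 1.79 RPKM. At each of these 5 clusters both clsy quad libraries were above all 4 libraries of NRPD1-3xF CYC-AAAA and nrpd1-3, and below both NRPD1-3xF AAA-YPMF libraries.

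The clsy quad level was higher where that of Col-0 was higher. Over the 788 clusters the Spearman correlation with Col-0 was 0.74 for clsy quad and 0.36 for NRPD1-3xF AAA-YPMF, whose range the rule bounds from below. Over all clusters the values were nearly equal, at 0.58 and 0.55. From the lowest to the highest of the 4 parts by Col-0 level, the median clsy quad level was 0.0550, 0.10, 0.195 and 0.465 RPKM. That of nrpd1-3 was 0.0450, 0.0950, 0.0850 and 0.110 RPKM. The clsy quad median was therefore close to that of nrpd1-3 in the lower 2 parts and above it in the higher 2. No clsy quad siRNAs were listed in either library at 122 of the 788 clusters.

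Both clsy quad libraries exceeded both nrpd1-3 libraries at 243 residual clusters (30.8%), against 13.3% of all clusters. They exceeded both NRPD1-3xF CYC-AAAA libraries at 175 (22.2%), against 7.20% of all clusters. Both NRPD1-3xF AAA-YPMF libraries were above both clsy quad libraries at 693 (87.9%), against 52.5% of all clusters. The rule used the NRPD1-3xF AAA-YPMF, NRPD1-3xF CYC-AAAA and nrpd1-3 libraries, so these counts describe the clusters that it chose.

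The 105 clusters called lower in NRPD1-3xF WT, most of them with high Col-0 levels, were compared with the others in clsy quad. Both clsy quad libraries were above both nrpd1-3 libraries at 86 of the 105. Among the residual clusters this held at 243 (30.8%), and among all clusters at 13.3%. The highest of the 4 parts by Col-0 level, with 95 of the 105, had medians of 0.465 RPKM in clsy quad and 0.110 RPKM in nrpd1-3. The median clsy quad level of the 105 was 0.750 RPKM. It was 0.140 RPKM at the 663 clusters not called. As a percent of Col-0, however, the clsy quad level was similar, at medians of 0.208% and 0.224%. As a percent of NRPD1-3xF WT the medians were 0.747% and 0.207%. For NRPD1-3xF AAA-YPMF the groups were instead similar as a percent of NRPD1-3xF WT, at medians of 1.44% and 1.51%. As a percent of Col-0 the medians were 0.350% and 1.91%. The groups were made from the ratio of NRPD1-3xF WT to Col-0, which fixes part of these differences. With only clusters in the highest of the 10 parts by Col-0 level, the medians for clsy quad were 0.207% and 0.181% of Col-0. Those for NRPD1-3xF AAA-YPMF were 1.42% and 0.672% of NRPD1-3xF WT, so that the near equality in NRPD1-3xF WT did not hold there.

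**Figure D4:**
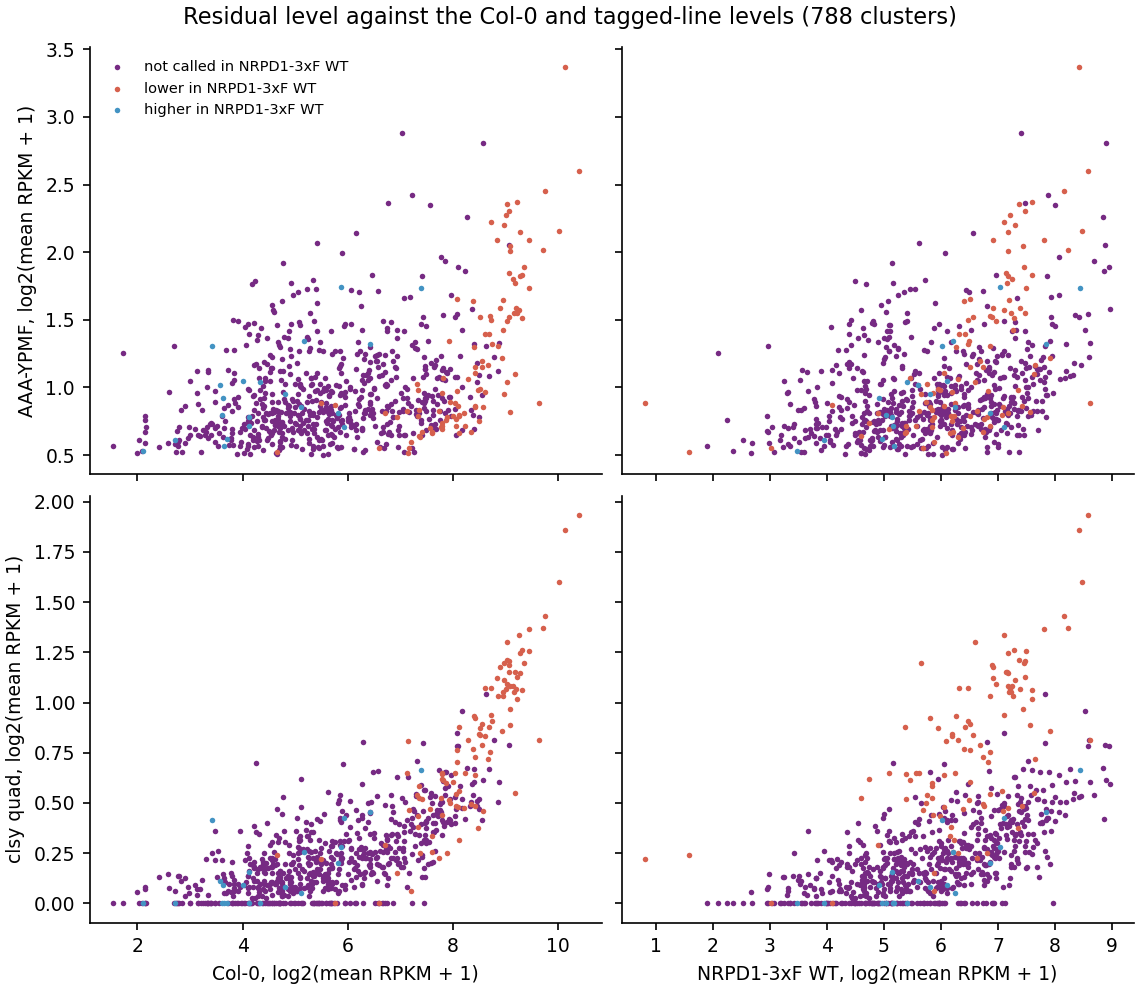
Mean levels of the 788 residual clusters in NRPD1-3xF AAA-YPMF (top) and clsy quad (bottom) against Col-0 (left) and NRPD1-3xF WT (right), all as log2(mean RPKM + 1). Colours give the call between NRPD1-3xF WT and Col-0. In the lower left panel the Spearman correlation is 0.87 within the 105 clusters called lower and 0.64 within the 663 not called. These values do not show whether both groups follow the same line. In the lower right panel the 105 lie further left for their clsy quad level, which their selection by the ratio of NRPD1-3xF WT to Col-0 fixes in part.

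The order of the replicates was compared between these groups. Replicate 1 of NRPD1-3xF AAA-YPMF was above replicate 2 at 80 of the 105 clusters called lower (76.2%) and at 217 of the 663 clusters not called (32.7%). Over all clusters this share was 34.9%. In clsy quad the numbers were 66 (62.9%) and 177 (26.7%), in nrpd1-3 67 (63.8%) and 221 (33.3%), and in Col-0 101 (96.2%) and 456 (68.8%). In NRPD1-3xF CYC-AAAA the shares were 66.7% and 45.2%, and in NRPD1-3xF WT they were nearly the same, at 84.8% and 86.6%. Over all clusters the shares were 26.5% in clsy quad, 24.1% in nrpd1-3 and 65.3% in Col-0. They were 38.0% in NRPD1-3xF CYC-AAAA and 80.0% in NRPD1-3xF WT. Equal values counted as not above, which lowers the shares where levels are low. In clsy quad, 122 residual clusters were at 0 in both libraries. The part of any difference between libraries in the residual levels was not tested.

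The residual clusters were spread over the chromosomes much as all nuclear clusters were. Chromosomes 1 to 5 held 174, 172, 150, 135 and 157 of them, or 22.1%, 21.8%, 19.0%, 17.1% and 19.9%. All nuclear clusters had 22.1%, 20.1%, 19.9%, 16.2% and 21.7%. Relative to the gene-poorest 1 Mb of each chromosome, which lies near the centromere, they were further out. Within 3 Mb of it lay 329 residual clusters (41.8%), against 55.0% of all nuclear clusters. Clusters with high Col-0 levels were further out in general, and in the highest of the 10 parts by Col-0 level the share was 35.3% of residual clusters and 25.9% of the other clusters. Within that part the order was thus the opposite.

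**Figure D5:**
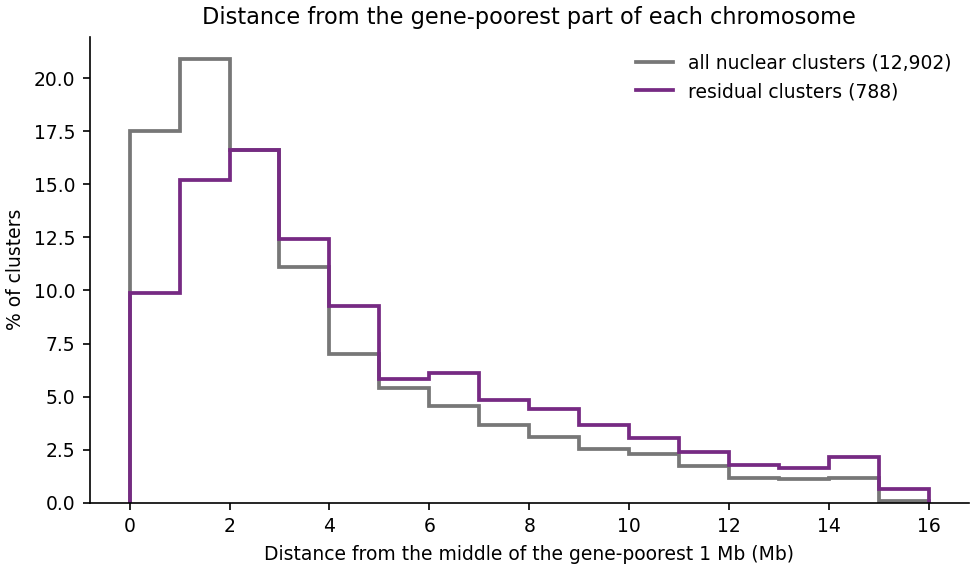
Distance from the middle of the gene-poorest 1 Mb of the chromosome in bins of 1 Mb (horizontal axis) against the percent of clusters in each bin (vertical axis), for the 788 residual clusters and the 12,902 nuclear clusters. The first bin holds 9.90% of residual clusters and 17.5% of all. The curves are not matched for Col-0 level.

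The distance to the nearest other residual cluster was a median of 39.8 kb, and 142 residual clusters (18%) had another within 10 kb. Without such values for an equal number of other clusters, these do not show whether residual clusters lie closer together than clusters in general. No annotated gene overlapped the first 300 bases of 613 residual clusters (77.8%), against 65.8% of all nuclear clusters. A protein-coding gene overlapped 126 (16.0%, against 14.1%) and a pseudogene 33 (4.19%, against 17.7%). No residual cluster overlapped a microRNA gene, but the shares above leave only a small share for such genes among all nuclear clusters as well. The median GC content was 30.0% in residual clusters and 32.0% in all. In the highest of the 10 parts by Col-0 level it was 30.2% in residual clusters and 30.7% in the others. It was 30.3% in both in the part below it and 28.7% and 29.7% in the next, but 31.0% and 28.7% in a part of lower level. By Col-0 level, pseudogenes were at 2.26% of residual clusters and 4.38% of the others in the highest of the 10 parts, but at 4.23% and 4.01% in the next and 6.73% and 4.05% in the one below it.

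Of the residual clusters in protein-coding genes, those with the highest NRPD1-3xF AAA-YPMF levels are named here because of their values. merged_5_1409843 lies at the end of VPS60.2 (chr5:1407940-1409935), a gene for a SNF7 family protein. It had 4.52 and 3.73 RPKM in NRPD1-3xF AAA-YPMF, 544 and 502 RPKM in Col-0 and 172 and 155 RPKM in NRPD1-3xF WT. merged_4_12433510, in a coding exon of UGE2 (chr4:12431097-12433912), which encodes a UDP-glucose epimerase, had 4.43 and 3.27 RPKM in NRPD1-3xF AAA-YPMF and 527 and 497 RPKM in Col-0. merged_5_20312647, in a coding exon of emb1441, had 4.02 and 3.19 RPKM in NRPD1-3xF AAA-YPMF and 529.6 and 467 RPKM in Col-0. These 3 clusters were each called lower in NRPD1-3xF WT, with log2 fold changes of -1.67, -1.80 and -1.66, and their clsy quad libraries had 0.96 to 1.44 RPKM. A single gene held more than 1 residual cluster. It was AT1G63870, a disease resistance gene of the TIR-NBS-LRR class, whose intron sequence overlapped merged_1_23710010 and merged_1_23710395. Their mean levels were 1.43 and 0.880 RPKM in NRPD1-3xF AAA-YPMF and 43.0 and 19.1 RPKM in Col-0.

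The 105 clusters called lower in NRPD1-3xF WT were set beside the 663 not called in sequence and place, with no test. No repeated 24-mer was found in the first 300 bases of 60 of the 105 (57.1%) and 147 of the 663 (22.2%). Only 10 of the 105 (9.52%) shared a 24-mer with another residual cluster, against 236 of the 663 (35.6%). A coding exon overlapped 19.0% and 6.94%, against 8.76% of all residual clusters. Within 3 Mb of the gene-poorest part lay 27.6% and 43.7%, against 41.8%. The shares for coding exons and place were not matched for Col-0 level, and 102 of the 105 were in the highest of the 10 parts. Among the clusters that were not residual, those called lower also had more windows without a repeated 24-mer than those not called (48.1% and 16.3%). In the highest of the 10 parts by Col-0 level the shares for the residual clusters were 56.9% and 32.0%.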

How the data were processed

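Small RNA-seq values of flowers from 6 genotypes were analysed, with 2 libraries each. After adapter trimming (cutadapt 1.18), the authors aligned reads to TAIR10 by ShortStack, placed multi-mapped reads by the fractional-seeded mode, kept perfect matches and 3′ terminal mismatches, and deposited RPKM values of 24 nt siRNAs at 12,939 clusters from HOMER 4.10. The files used hold no read counts, and the read totals that accompany the study were not used here. The values have 2 decimals. Columns were matched to samples by name, and 0 value columns were unused. The 5 libraries of the CLSY3 line set were not analysed here.

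Comparisons were fitted on log2(RPKM + 1) with limma 3.58.1 in R 4.3.3 (4 libraries, eBayes with trend), with Benjamini-Hochberg adjustment over all clusters. The study's limits were used. With 2 libraries against 2, an exact permutation test cannot go below p = 0.333. On simulated data all 200 changed clusters were recovered, with 0 false calls. Recovery near the fold change limit or at clusters of low level was not tested. The share of false calls in the comparisons of NRPD1-3xF WT or clsy quad with Col-0 was not tested either. Sequence and annotation came from RefSeq TAIR10.1 with Python 3.11.15, in windows of 300 bases, since cluster ends were not used. Windows started at the position in the cluster's name, which was assumed to be the left edge. A 24-mer was counted on both strands.

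The residual clusters, the naming rules and the alternatives were chosen with earlier results of these data known. Named clusters are the 10 highest in NRPD1-3xF AAA-YPMF, 5 each at the extremes of Col-0, clsy quad, percent kept and change in NRPD1-3xF WT, those at the limits of the rule, and those that share a gene. Replicate numbers were not used as pairs in the main fits. Over all clusters, deviations of same-numbered libraries did not correlate between Col-0 and NRPD1-3xF WT or clsy quad.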

Additional observations from a re-analysis of the deposited data

How the results depend on the processing

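With a pseudocount of 0.1 in the difference, 4964 clusters met the rule in place of 788, and 82 did at a difference of at least 1. In those 82, 43 were called lower and 4 higher in NRPD1-3xF WT, the median log2 fold change against Col-0 was -1.51, that of clsy quad was -7.69 with 82 called lower, and the percent of Col-0 kept in NRPD1-3xF AAA-YPMF was 0.705%. The smaller counts follow from the fewer clusters tested. The share called lower in NRPD1-3xF WT was nevertheless above the 13.3% of the 788, and the median was opposite in sign to their 0.25. The cause of these and the other changes was not tested. With summed RPKM that percent was 0.921%. With nrpd1-3 under 0.25 RPKM the clsy quad median was -5.49, and with a pseudocount of 0.1 it was -7.97. With the libraries shifted to an equal median, 11 residual clusters were called higher in NRPD1-3xF WT and the median log2 fold change was 0.09.

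With a replicate left out, the counts in NRPD1-3xF WT were 14 to 36 higher and 101 to 112 lower, with medians of 0.17 to 0.32. In clsy quad 620 to 788 were called lower, with medians of -5.57 to -5.50. The percent of Col-0 ranged from 1.44% to 1.73% in NRPD1-3xF AAA-YPMF and from 0.140% (without clsy quad replicate 2) to 0.228% in clsy quad. With the replicate block, 20 residual clusters were higher and 105 lower in NRPD1-3xF WT and 788 lower in clsy quad. Over all clusters, deviations of same-numbered libraries from their group means correlated at -0.01 between Col-0 and NRPD1-3xF WT. Between Col-0 and clsy quad the value was 0.00. These values cannot tell whether same-numbered libraries were handled together, which was not tested. At the 105 residual clusters called lower in NRPD1-3xF WT, replicate 1 was above replicate 2 at 62.9% (clsy quad) to 96.2% (Col-0) in the 6 genotypes. Without read counts or cluster ends, differences between the mutants at single clusters of low level are not resolved, and 2 libraries per genotype limit each mean. The other alternatives kept the direction of each result and moved no count by more than 1.5 times.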
